A study of Mus musculus with 14 samples.

Results

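Transcripts of the ciliary transition zone and of the centriole, the barrel of microtubules from which a cilium grows, were followed across 5 sorts of adult mouse brain cells. The genes were chosen by name from a list of 32 known components of these structures. An array feature paired with that gene symbol existed for 31 of them, out of 18193 genes measured, and Rpgrip1l was not analysed here. By role, 13 measured genes belong to the transition zone, 5 to the distal end and appendages of the mother centriole, 2 to the cap of the centriole and 9 to centriole duplication and elongation. The other 2 are Pcm1 of the centriolar satellites and Cep41, which acts in tubulin glutamylation.

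All cells came from 8-week-old hGFAP eGFP mice, whose green fluorescent protein (GFP) is expressed from a human GFAP promoter, and all 5 sorts share this transgene. Sorting by fluorescence gave GFP-positive cells of the diencephalon, labelled astrocytes (DIEC_GFP, n = 4 arrays). From the subependymal zone beside the lateral ventricle came cells positive for GFP and prominin (SEZ_GFPprom, n = 4), for GFP (SEZ_GFP, n = 2) and for prominin (SEZ_Prom, n = 2), all 3 labelled neural stem. Cells positive for CD24 from the same region (SEZ_CD24, n = 2) were labelled ependymal. The labels name positive stains only, so they do not say whether the single-stain sorts held cells that were also positive for another stain. They call the arrays biological replicates without stating separate animals, and the tests therefore speak only of the variation among these 14 arrays, which may be technical.

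As background, the transition zone is the short stretch between centriole and cilium where Y-shaped linkers tie microtubules to the membrane, and its MKS and NPHP protein modules gate what enters the cilium. A mother centriole docks to the membrane through distal appendages, and the cap proteins Ccp110 and Cep97 must leave it before a cilium can grow. Centriole duplication is tied to the cell cycle: Plk4 starts it, and Stil and Sass6 build the cartwheel of the new centriole. In the subependymal zone, stem cells carry a solitary primary cilium, dividing progenitors copy centrioles at each cycle, and ependymal cells make many centrioles at once for their motile cilia.

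The promoters below belong to 3 transition zone genes and 2 duplication genes whose levels differed in several comparisons, and they are shown because RFX factors, which regulate cilium genes, and E2F factors, which regulate cell cycle genes, have known short motifs. Each sequence is the 250 bases before the transcript start in RefSeq (GRCm38.p6), 5′ to 3′. Capitals mark a match, on either strand, to the short RFX site GTTGCC or its longer form GTTNCCAT, to the cell cycle homology element TTTGAA, or to the E2F cores TTCCCGC and TTGGCGC. The first 2 patterns overlap in their first bases and were searched separately.
B9d1, chr11:61504894-61505143, plus strand: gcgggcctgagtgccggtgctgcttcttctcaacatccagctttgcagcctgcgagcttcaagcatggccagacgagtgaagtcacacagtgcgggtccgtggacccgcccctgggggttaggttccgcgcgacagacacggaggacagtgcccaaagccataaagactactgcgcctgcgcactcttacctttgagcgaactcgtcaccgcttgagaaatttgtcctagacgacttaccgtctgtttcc
Tctn2, chr5:124598499-124598748, plus strand: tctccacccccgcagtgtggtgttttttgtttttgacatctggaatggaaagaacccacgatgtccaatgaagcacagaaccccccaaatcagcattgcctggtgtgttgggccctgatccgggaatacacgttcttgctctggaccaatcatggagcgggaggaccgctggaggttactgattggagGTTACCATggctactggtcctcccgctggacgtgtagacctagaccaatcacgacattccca
Mks1, chr11:87852965-87853214, plus strand: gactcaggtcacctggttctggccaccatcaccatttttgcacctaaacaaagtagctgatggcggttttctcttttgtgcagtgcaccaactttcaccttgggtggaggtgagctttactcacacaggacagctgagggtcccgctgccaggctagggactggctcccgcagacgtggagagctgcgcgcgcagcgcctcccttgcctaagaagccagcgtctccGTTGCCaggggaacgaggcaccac
Plk4, chr3:40799701-40799950, plus strand: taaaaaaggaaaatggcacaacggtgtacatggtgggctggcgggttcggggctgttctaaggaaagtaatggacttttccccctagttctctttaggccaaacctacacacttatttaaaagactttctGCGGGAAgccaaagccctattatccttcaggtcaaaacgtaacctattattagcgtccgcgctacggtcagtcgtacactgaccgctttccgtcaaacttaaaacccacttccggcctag
Stil, chr4:114999868-115000117, plus strand: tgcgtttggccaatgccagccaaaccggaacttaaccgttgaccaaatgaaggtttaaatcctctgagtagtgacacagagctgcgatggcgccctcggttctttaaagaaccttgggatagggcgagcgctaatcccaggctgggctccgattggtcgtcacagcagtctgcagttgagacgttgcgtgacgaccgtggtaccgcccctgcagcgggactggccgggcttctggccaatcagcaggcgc

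Tctn2 held the longer RFX match 62 bases before its start, Mks1 the short site 24 bases before its start, and Plk4 an E2F core on the minus strand 120 bases before its start. In the windows of B9d1 and Stil none of the 5 patterns was found. RefSeq promoters were matched for 28 of the 32 listed genes, Rpgrip1l among them. Some genes had several, which gave 36 promoters. The short site stood in 5 of the 36 (Cby1, Cep41, Mks1, Tctn3 and Tmem231) and in 10.4% of all 32851 promoters. The longer form stood in 2 of the 36 (Ahi1 and Tctn2) against 3.70% of all. TTCCCGC stood in 3 (Cep152, Cep41 and Plk4) against 3.82%, and TTGGCGC in 1 (Tctn3) against 1.97%. TTTGAA stood in 8 of the 36, from 7 genes, against 16.0%. Overlapping windows of Odf2 that hold the same site are counted separately among the 8. These are letter matches, not measured binding.

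The deposited intensities were taken to log2, each gene was read from its brightest probe set, and groups were compared with limma in 1 fit over all genes. A gene was called different at a Benjamini-Hochberg adjusted p under 0.05, and each difference below is given on the log2 scale, with the sort named first as the higher one where the value is positive. Arrays of the same group correlated at 0.942 to 0.979 over all genes, each read from its brightest probe set, and arrays of different groups at 0.845 to 0.952. The log2 ratio of 3' to 5' signal of the control transcripts, a measure of RNA integrity and amplification, averaged 5.40 ± 0.29 (SD, n = 4) in DIEC_GFP, 5.15 ± 0.29 (n = 2) in SEZ_CD24, 4.94 ± 0.18 (n = 4) in SEZ_GFPprom, 4.73 ± 0.14 (n = 2) in SEZ_GFP and 4.63 ± 0.07 (n = 2) in SEZ_Prom. It thus differed between sorts, and its part in the results was not tested beyond a fit with this ratio as a covariate, whose counts are given below.

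Markers of other cells also differed between the sorts. The summed linear intensity of 10 ependymal markers, among them Foxj1 and Rarres2, was 13024 to 22478 in SEZ_GFPprom, 4911 to 7530 in DIEC_GFP, 631 to 1226 in SEZ_GFP, 604 to 951 in SEZ_Prom and 310 to 521 in SEZ_CD24. The sort labelled ependymal therefore had the lowest ependymal marker signal, and Foxj1, the master regulator of motile cilia, stood at log2 6.04 and 5.58 there against 9.17 to 10.08 in SEZ_GFPprom. Markers of neuroblasts (8 genes) summed to 16637 to 28823 in SEZ_CD24, 16494 to 17372 in SEZ_GFP, 6055 to 9246 in SEZ_GFPprom, 2463 to 5086 in SEZ_Prom and 2778 to 3349 in DIEC_GFP. Those of microglia (7 genes) summed to 12522 to 24436 in SEZ_CD24 and to between 937 and 11616 in the other sorts. Those of oligodendrocytes (6 genes) summed to 20864 to 28869 in DIEC_GFP, 23026 to 23746 in SEZ_Prom and between 1956 and 8172 in the other sorts. Oligodendrocyte progenitor markers (6 genes) summed to 10440 to 13807 in DIEC_GFP, 5504 to 7256 in SEZ_Prom and between 511 and 2713 in the other sorts. Mural markers (6 genes) summed to 1127 to 2405 in SEZ_GFPprom and to between 159 and 508 in the other sorts. The sum of 11 proliferation markers was 11352 to 13294 in SEZ_GFP, 5849 to 8645 in SEZ_CD24, 4682 to 8497 in SEZ_GFPprom, 2539 to 2608 in SEZ_Prom, and 323 to 839 in DIEC_GFP. At an intensity of 10 or less, about background, were 1 of the 10 ependymal markers in SEZ_GFP and in SEZ_CD24 and 2 in SEZ_Prom, and none of the proliferation markers in any sort. In sorted bulk RNA, a change in the share of such cells and a change in RNA per cell cannot be told apart.

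Among the 31 genes, transition zone transcripts were on average highest in SEZ_GFPprom, whereas centriole duplication transcripts were on average highest in SEZ_GFP and SEZ_CD24. Over the 10 pairs of sorts 43 differences of single genes passed, of which 4 passed under all 23 alternative settings and 39 were lost in at least 1. Differences among the 5 sorts as a whole passed limma's moderated F test for 14 of the 31 genes, against 25.8% of all genes. These were 6 of 13 transition zone genes, 3 of 5 distal genes, 1 of 2 cap genes, 3 of 9 duplication genes and Cep41. The sort with the highest mean was SEZ_GFPprom for 8 of the 13 transition zone genes, and DIEC_GFP for Tctn3, Mks1, Cc2d2a and Ahi1. It was SEZ_GFP for 6 and SEZ_CD24 for 2 of the 9 duplication genes. These counts include genes that did not pass the F test, and the matching shares of all genes were not counted. The mean log2 intensity of the 13 transition zone genes was 7.14 to 7.36 in the SEZ_GFPprom arrays, 6.73 to 6.90 in DIEC_GFP, 6.47 and 6.59 in SEZ_GFP, 6.04 and 6.13 in SEZ_CD24, and 5.88 and 6.10 in SEZ_Prom. That of the 9 duplication genes was 6.73 and 7.01 in SEZ_GFP, 6.61 and 6.68 in SEZ_CD24, 5.62 to 6.54 in SEZ_GFPprom, 5.51 and 5.69 in SEZ_Prom, and 5.06 to 5.75 in DIEC_GFP. These means describe the sets and carry no test.

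**Figure D1:**
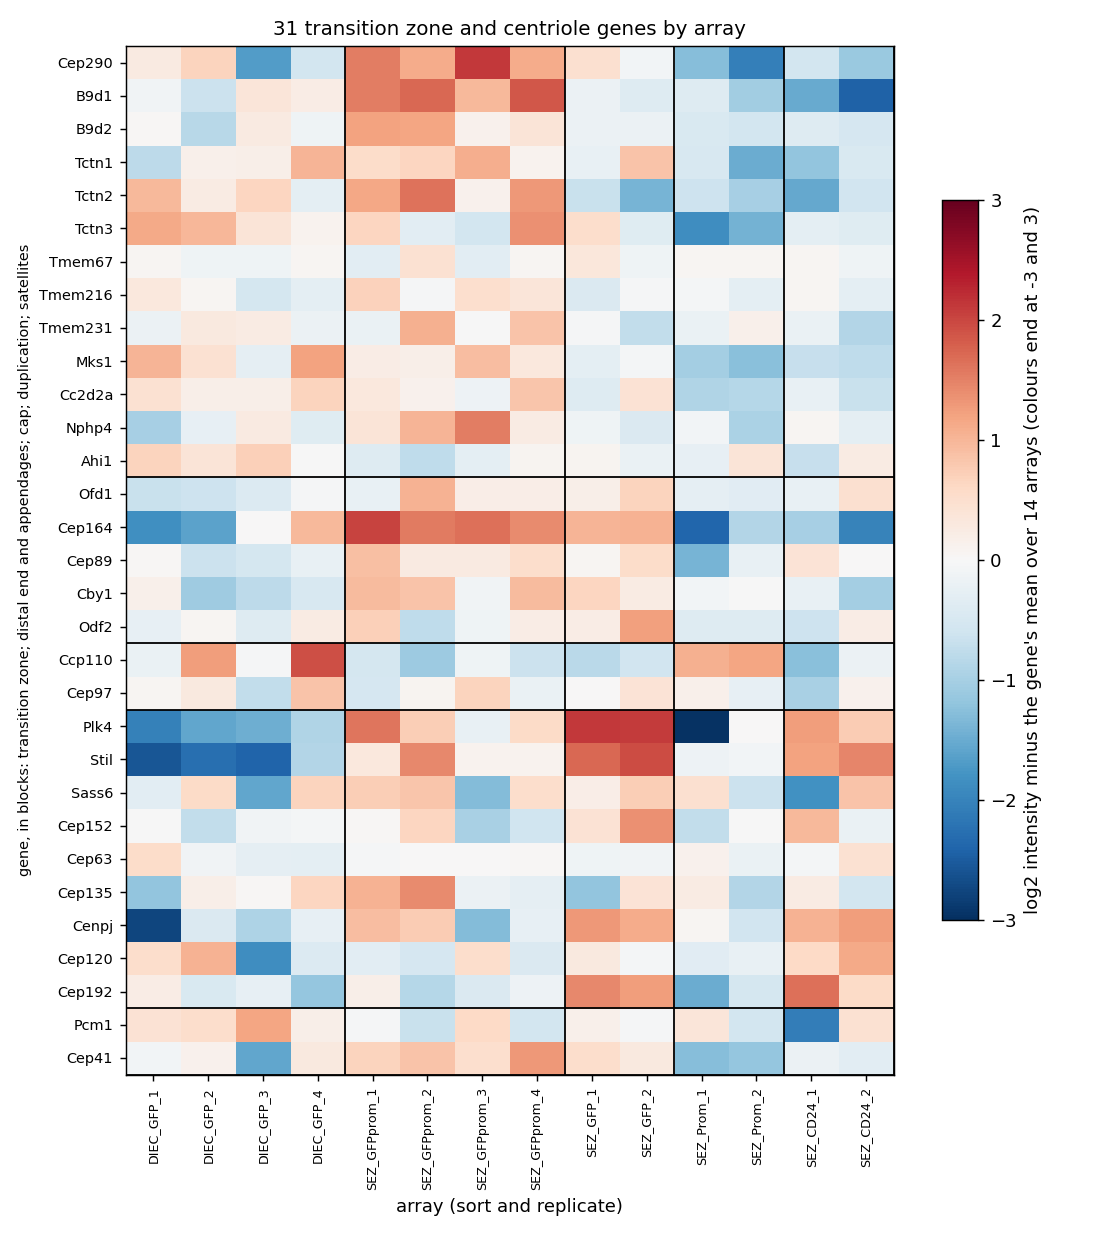
Log2 intensity of each of the 31 genes (rows, in blocks by role) on each of the 14 arrays (columns, in blocks by sort), shown as the difference from the gene's own mean over all arrays. In the top block B9d1 and Cep290 are red in all 4 SEZ_GFPprom arrays, and in the duplication block Plk4, Stil and Cep192 are red in both SEZ_GFP arrays.

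Cells positive for GFP and prominin were first compared with the GFP-positive astrocytes of the diencephalon, a contrast in which region and the prominin stain both differ. Of the 31 genes 8 were higher in SEZ_GFPprom, against 10.1% of all genes, and 0 were lower, against 7.78% (17.8% in either direction). The 8 were B9d1, Cep290 and Nphp4 of the transition zone, Cep164 and Cby1 of the distal end, the duplication genes Plk4 and Stil, and Cep41. At an unadjusted limma p under 0.05 there were 14, and the share of all genes at that threshold was not counted. The median difference was 0.47, against 0.08 over all genes. Without DIEC_GFP replicate 2 the count was 3, without SEZ_GFPprom replicate 2 it was 5, and with the 3' to 5' ratio as a covariate it was 1 (Stil). All 11 proliferation markers and 6 of the 10 ependymal markers were also higher in SEZ_GFPprom, as were 7 of 8 neuroblast markers. So were 2 of 6 mural, 2 of 6 mature neuron and 1 of 6 choroid plexus markers. All 6 oligodendrocyte, all 6 oligodendrocyte progenitor, 5 of 10 astrocyte and 2 of 7 microglia markers were lower. The part of these cell types in the 8 differences was not tested.

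Within the subependymal zone, SEZ_GFPprom exceeded SEZ_GFP in 2 genes, B9d1 and Tctn2, against 2.63% of all genes, and was lower in 0, against 0.539% (3.17% in either direction). Against SEZ_Prom it was higher in 9, against 4.40%, and lower in 0, against 2.76% (7.16% in either direction). The 9 were Cep290, B9d1, Tctn2, Tctn3, Mks1, Cc2d2a, Cep164, Cep89 and Cep41, with none from centriole duplication. Against SEZ_CD24 it was higher in 6, against 8.98%, namely Cep290, B9d1, B9d2, Tctn2, Cep164 and Cby1. It was lower in Cep192 alone, a share near the 4.74% of all genes (13.7% in either direction). Ependymal markers were higher in SEZ_GFPprom in the same comparisons, 9 of 10 against SEZ_GFP, 8 against SEZ_Prom and 9 against SEZ_CD24. Other markers moved as well. Against SEZ_GFP 2 of 8 neuroblast and 1 of 6 oligodendrocyte progenitor markers were lower. There 2 of 6 oligodendrocyte, 2 of 6 mural and 2 of 6 choroid plexus markers were higher. Against SEZ_Prom 4 of 6 oligodendrocyte, 1 of 6 oligodendrocyte progenitor and 3 of 6 choroid plexus markers were lower. Higher there were 2 of 11 proliferation, 2 of 8 neuroblast and 2 of 6 mural markers. Against SEZ_CD24 6 of 8 neuroblast, 5 of 7 microglia, 3 of 6 choroid plexus and 1 of 6 mature neuron markers were lower. Higher there were 6 of 10 astrocyte, 3 of 6 mural and 1 of 6 oligodendrocyte markers. The part of these cell types in the differences was not tested. The counts rest on few arrays: against SEZ_GFP 0 genes were called without either SEZ_GFP array and 1 without SEZ_GFPprom replicate 1, 2 or 4. Against SEZ_Prom there were 2 and 3 without SEZ_Prom replicates 1 and 2, and 5 without SEZ_GFPprom replicate 1 or 4. Against SEZ_CD24 there were 3 and 2 without SEZ_CD24 replicates 1 and 2, and 4 without either SEZ_GFP array or SEZ_GFPprom replicate 2.

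The other sorts were also set against the diencephalic astrocytes. SEZ_GFP was higher in the 3 duplication genes Plk4, Stil and Cep192, against 5.61% of all genes, and lower in 0, against 7.05% (12.7% in either direction). The count was 1 without SEZ_GFP replicate 2, 6 without DIEC_GFP replicate 4, and 5 without SEZ_GFPprom replicate 3. SEZ_CD24 was higher in 4 duplication genes, namely Cenpj, Cep192, Plk4 and Stil, against 6.90%. It was lower in 3 of the 31 genes, the transition zone genes B9d1, Tctn2 and Mks1. That share is near the 9.74% of all genes that were lower (16.6% in either direction). The total of 7 was 2 and 3 without SEZ_CD24 replicates 1 and 2, and 4 without DIEC_GFP replicate 1 or 2. SEZ_Prom was higher in Stil alone, a share near the 3.35% of all genes. It was lower in Mks1, Cc2d2a and Tctn3, against 2.98% (6.33% in either direction). This total of 4 was 0 without either SEZ_Prom array and 2 without DIEC_GFP replicate 1. Of the proliferation markers 11 of 11 were higher in SEZ_GFP, 11 in SEZ_CD24 and 5 in SEZ_Prom than in DIEC_GFP, and of the ependymal markers 8, 9 and 8 of 10 were lower. Neuroblast markers were higher in 8, 8 and 5 of 8, with 1 lower in SEZ_Prom. Oligodendrocyte markers were lower in 6, 5 and 0 of 6. Oligodendrocyte progenitor markers were lower in 3, 6 and 2 of 6, and astrocyte markers in 5, 9 and 4 of 10. Choroid plexus markers were higher in 0, 3 and 3 of 6, with 1 lower in SEZ_GFP. Mature neuron markers were higher in 2, 2 and 0 of 6. In SEZ_GFP 4 of 7 microglia markers were lower, and in SEZ_CD24 1 was higher. The part of these cell types was not tested. All comparisons with DIEC_GFP share its 4 arrays, and those with SEZ_GFPprom share that sort's 4 arrays.

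Among the remaining pairs, SEZ_GFP was higher than SEZ_Prom in 2 genes, Plk4 and Cep192, against 2.81% of all genes, and lower in 0, against 4.15% (6.96% in either direction). The count was 0 without either SEZ_GFP array or SEZ_Prom replicate 1, 4 without DIEC_GFP replicate 3 and 5 without DIEC_GFP replicate 4. In SEZ_GFP 5 of 11 proliferation and 6 of 8 neuroblast markers were also higher than in SEZ_Prom. Lower were 6 of 6 oligodendrocyte, 4 of 6 choroid plexus, 2 of 7 microglia and 1 of 10 astrocyte markers. Of the 6 oligodendrocyte progenitor markers 1 was higher and 1 lower. The part of these markers was not tested. SEZ_Prom was lower than SEZ_CD24 in Cep192 alone, a share near the 2.10% of all genes, and higher in 0, against 3.43% (5.53% in either direction). The Cep192 call was lost without any 1 of the 4 arrays of these sorts. Of the neuroblast markers 7 of 8 were lower in SEZ_Prom as well, as were 1 of 11 proliferation and 1 of 7 microglia markers. Higher there were 5 of 6 oligodendrocyte, 3 of 6 oligodendrocyte progenitor and 3 of 10 astrocyte markers, and their part was not tested. Between SEZ_GFP and SEZ_CD24 limma called 0 of the 31 genes, against 0.363% of all genes higher, 0.456% lower and 0.819% in either direction. At an unadjusted limma p under 0.05 there were 3, and 26 of 31 differences were positive. Neither share was counted over all genes. The median difference was 0.41, against 0.02 over all genes. The comparisons of SEZ_CD24 and SEZ_Prom with DIEC_GFP and of SEZ_GFP with SEZ_Prom and SEZ_CD24 were added after values had been seen.

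**Figure D2:**
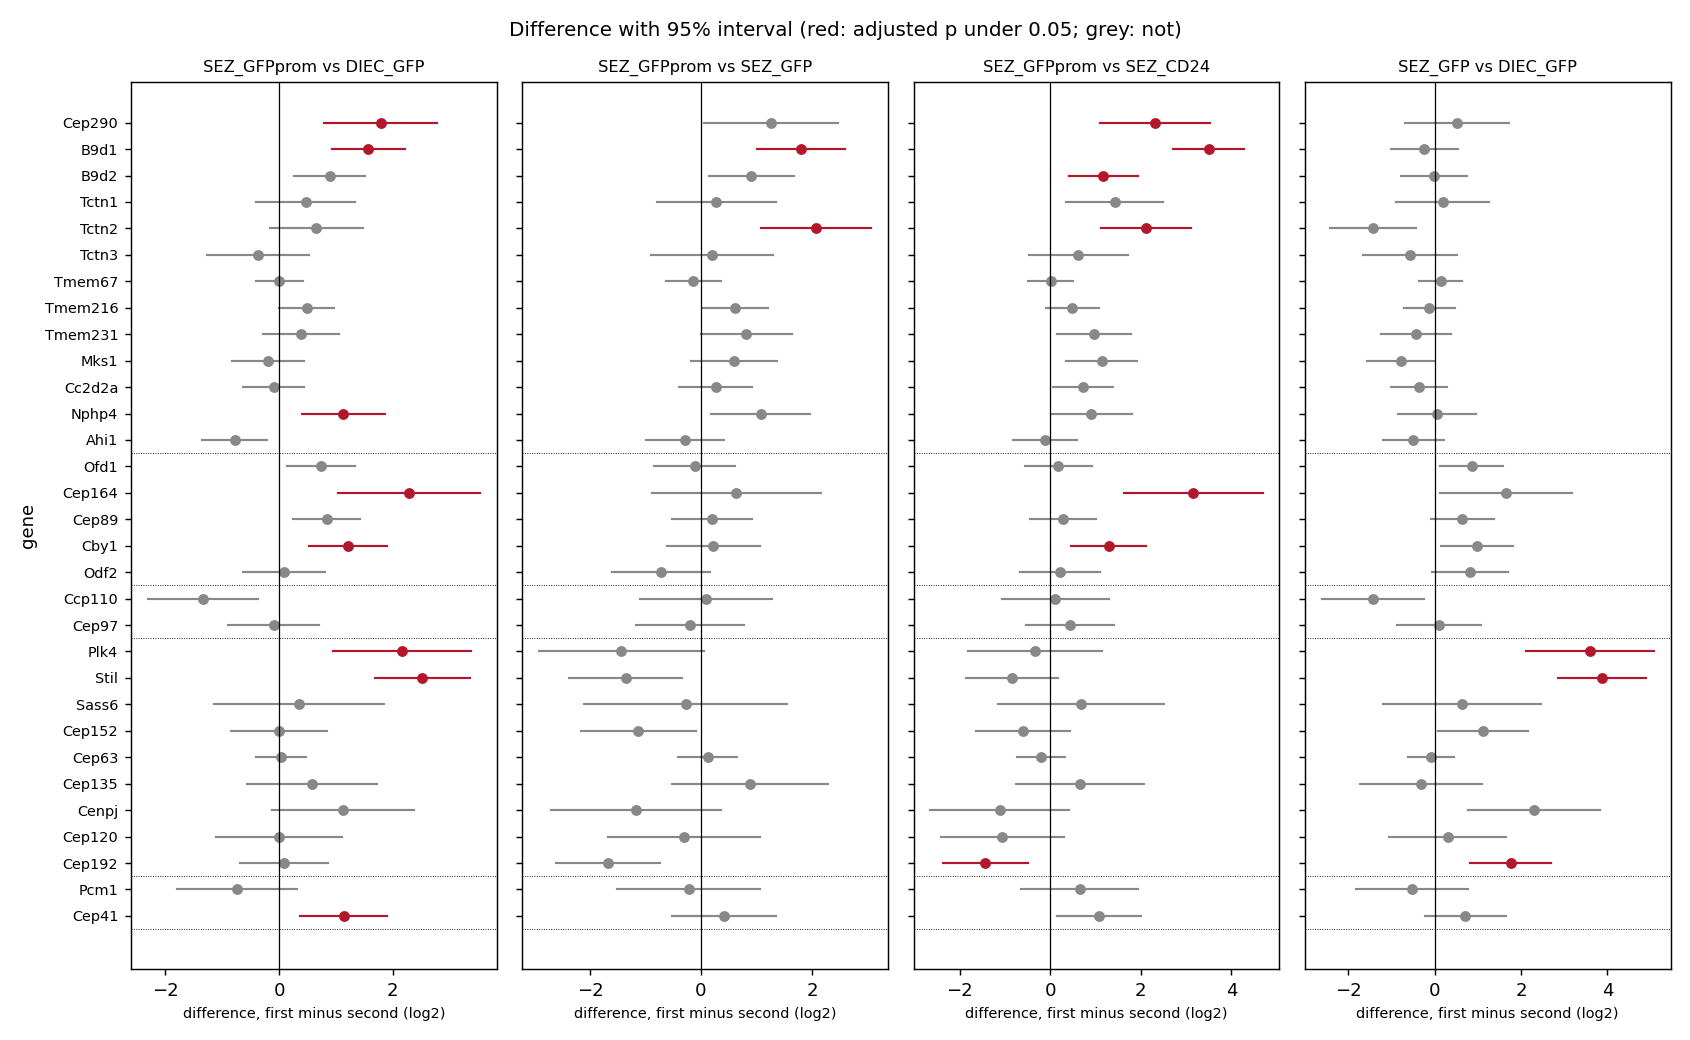
Difference in log2 intensity (points, first sort minus second) with its 95% interval (lines) for each of the 31 genes in 4 comparisons, red where limma's adjusted p was under 0.05. B9d1 of the transition zone (3.50 against SEZ_CD24) lies to the right in the 3 comparisons of SEZ_GFPprom. The transition zone genes Tctn3, Mks1, Cc2d2a and Ahi1 lie to the left in SEZ_GFPprom against DIEC_GFP. Plk4 (3.59) and Stil (3.87) lie furthest right in SEZ_GFP against DIEC_GFP.

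B9d1 encodes a B9-domain protein of the MKS module. Its log2 intensity was 9.32, 9.53, 8.76 and 9.67 in the SEZ_GFPprom arrays, 7.68, 7.14, 8.15 and 8.02 in DIEC_GFP, 7.61 and 7.42 in SEZ_GFP, 7.41 and 6.75 in SEZ_Prom, and 6.29 and 5.36 in SEZ_CD24. Each SEZ_GFPprom array lay above every array of the other sorts, and both SEZ_CD24 arrays lay below all others. The difference from SEZ_CD24 was 3.50 ± 0.36 (SE), an 11.3-fold higher level (adjusted p = 8.86e-05), and it passed under all 23 alternatives tried (adjusted p = 4.58e-05 to 0.00703). SEZ_GFPprom was 4.72-fold above SEZ_Prom (2.24 ± 0.36, adjusted p = 0.00354), 3.49-fold above SEZ_GFP (1.80 ± 0.36, adjusted p = 0.0165) and 2.97-fold above DIEC_GFP (1.57 ± 0.29, adjusted p = 0.00412). SEZ_CD24 was 3.80-fold below DIEC_GFP (-1.93 ± 0.36, adjusted p = 0.00328). B9d1 was called in 5 of the 10 pairs, as was Cep192. The call against DIEC_GFP was lost with the 3' to 5' ratio as a covariate (adjusted p = 0.105, range 0.00304 to 0.105 over the alternatives). That against SEZ_GFP was lost without SEZ_GFP replicate 1 (adjusted p = 0.0976) or 2 (0.211, range 0.00648 to 0.211), and that against SEZ_Prom without SEZ_Prom replicate 2 (0.0583, range 0.00197 to 0.0583). SEZ_CD24 against DIEC_GFP was lost without SEZ_CD24 replicate 2 (0.0594, range 0.00146 to 0.0594).

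Cep290, a large coiled-coil protein of the Y-links, was also highest in SEZ_GFPprom. Its log2 intensity was 6.89, 6.48, 7.48 and 6.49 in SEZ_GFPprom, 5.64, 6.04, 3.70 and 4.81 in DIEC_GFP, 5.86 and 5.29 in SEZ_GFP, 4.09 and 3.32 in SEZ_Prom, and 4.81 and 4.25 in SEZ_CD24. The 4 SEZ_GFPprom arrays again lay above every other array, while the DIEC_GFP arrays were widely spread. The SEZ_Prom arrays, at intensities of 17 and 10, were near background, so the fold against them is not exact. SEZ_GFPprom was 8.77-fold above SEZ_Prom (3.13 ± 0.55, adjusted p = 0.00604), 4.96-fold above SEZ_CD24 (2.31 ± 0.55, adjusted p = 0.0184) and 3.45-fold above DIEC_GFP (1.79 ± 0.45, adjusted p = 0.0194). The difference from SEZ_GFP, 1.26, did not pass (95% interval 0.05 to 2.48, adjusted p = 0.307). Leaving out SEZ_Prom replicate 2 ended the call against SEZ_Prom (adjusted p = 0.0828, range over the alternatives 0.00130 to 0.0828). Leaving out SEZ_CD24 replicate 1 (0.0508) or 2 (0.154) ended that against SEZ_CD24 (range 0.00433 to 0.154), and leaving out SEZ_GFPprom replicate 3 (0.0512) that against DIEC_GFP (range 0.0117 to 0.0568).

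The tectonic genes Tctn1, Tctn2 and Tctn3 encode membrane-associated and secreted proteins of the same complex, and they did not share a pattern. Tctn2 read 6.87, 7.34, 5.83 and 7.0 (log2) in SEZ_GFPprom, 6.67, 5.95, 6.36 and 5.43 in DIEC_GFP, 5.04 and 4.32 in SEZ_GFP, 5.09 and 4.70 in SEZ_Prom, and 4.17 and 5.13 in SEZ_CD24. All SEZ_GFPprom and DIEC_GFP arrays lay above the other 6 arrays, and these 2 sorts overlapped. SEZ_GFPprom was 4.22-fold above SEZ_GFP (2.08 ± 0.45, adjusted p = 0.0279), 4.32-fold above SEZ_CD24 (2.11 ± 0.45, adjusted p = 0.0106) and 3.65-fold above SEZ_Prom (1.87 ± 0.45, adjusted p = 0.0302). SEZ_CD24 was 2.74-fold below DIEC_GFP (-1.45 ± 0.45, adjusted p = 0.0475). These 4 calls were lost in 9, 2, 9 and 15 of the 23 alternatives, with adjusted p up to 0.396 without SEZ_GFP replicate 2, 0.101 without SEZ_CD24 replicate 1, 0.200 without SEZ_Prom replicate 2, and 0.350 without SEZ_CD24 replicate 1.

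Tctn3 was instead set apart by its low level in SEZ_Prom. It read 5.04 and 5.49 (log2) in SEZ_Prom, 8.05, 7.92, 7.29 and 7.01 in DIEC_GFP, 7.55, 6.60, 6.36 and 8.29 in SEZ_GFPprom, 7.44 and 6.55 in SEZ_GFP, and 6.63 and 6.54 in SEZ_CD24. Both SEZ_Prom arrays lay below all 12 others. SEZ_Prom was 4.93-fold below DIEC_GFP (-2.30 ± 0.50, adjusted p = 0.0180) and 3.82-fold below SEZ_GFPprom (SEZ_GFPprom minus SEZ_Prom 1.93 ± 0.50, adjusted p = 0.0397). Leaving out SEZ_Prom replicate 1 ended both calls (adjusted p = 0.175 and 0.259), as did leaving out replicate 2 (0.0818 and 0.134), with ranges over the alternatives of 0.00880 to 0.175 and 0.0203 to 0.259. Tctn3 has 3 probe sets, and with these averaged SEZ_Prom minus DIEC_GFP was -0.72 and did not pass (adjusted p = 0.0508). Tctn1 passed in none of the 10 pairs. Its means were 7.59 ± 0.40 (SD, n = 4) in SEZ_GFPprom, 7.31 ± 0.76 (n = 2) in SEZ_GFP, 7.12 ± 0.74 (n = 4) in DIEC_GFP, 6.17 ± 0.51 (n = 2) in SEZ_CD24 and 5.99 ± 0.71 (n = 2) in SEZ_Prom.

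Mks1, the founding protein of the MKS module, and Cc2d2a, a C2-domain protein needed for the module to assemble, were high in both DIEC_GFP and SEZ_GFPprom, whose arrays overlapped. Mks1 read 7.79, 7.23, 6.51 and 7.97 (log2) in DIEC_GFP, 7.0, 6.94, 7.69 and 7.09 in SEZ_GFPprom, 6.48 and 6.70 in SEZ_GFP, 6.09 and 6.0 in SEZ_CD24, and 5.75 and 5.52 in SEZ_Prom. The first 2 sorts overlapped (difference -0.19, 95% interval -0.83 to 0.44), and both exceeded all SEZ_CD24 and SEZ_Prom arrays. SEZ_Prom was 3.33-fold below DIEC_GFP (-1.73 ± 0.36, adjusted p = 0.0136), and SEZ_CD24 2.51-fold below (-1.33 ± 0.36, adjusted p = 0.0236). SEZ_GFPprom was 2.91-fold above SEZ_Prom (1.54 ± 0.36, adjusted p = 0.0236). Each of the 3 calls was lost without either array of the smaller sort, with adjusted p of 0.0873 and 0.117 for SEZ_Prom against DIEC_GFP, 0.0960 and 0.132 for SEZ_CD24 against DIEC_GFP, and 0.119 and 0.166 for SEZ_GFPprom against SEZ_Prom without replicates 1 and 2. That of SEZ_CD24 against DIEC_GFP was also lost without DIEC_GFP replicate 1 (0.0521). Over the alternatives these adjusted p-values ranged from 0.00243 to 0.231, from 0.00286 to 0.132 and from 0.00559 to 0.166.

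Cc2d2a read 7.76 and 7.81 (log2) in SEZ_Prom, below all other arrays, which ran from 7.99 in SEZ_CD24 to 9.49 in SEZ_GFPprom. It was 2.38-fold lower in SEZ_Prom than in DIEC_GFP (-1.25 ± 0.30, adjusted p = 0.0295) and 2.22-fold lower than in SEZ_GFPprom (SEZ_GFPprom minus SEZ_Prom 1.15 ± 0.30, adjusted p = 0.0408). These calls were lost in 6 and 10 of the 23 alternatives, with adjusted p up to 0.189 and 0.215 without SEZ_Prom replicate 1.

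B9d2, the partner of B9d1, and Nphp4 of the NPHP module were each called in 1 pair. B9d2 read 8.49, 8.46, 7.39 and 7.66 (log2) in SEZ_GFPprom against 6.88 and 6.77 in SEZ_CD24, a 2.26-fold difference (1.18 ± 0.35, adjusted p = 0.0445), with no overlap between these sorts. Nphp4 read 6.43, 7.06, 7.58 and 6.29 in SEZ_GFPprom against 5.04, 5.81, 6.30 and 5.67 in DIEC_GFP, 2.19-fold (1.13 ± 0.33, adjusted p = 0.0377). The lowest SEZ_GFPprom array of Nphp4 lay just under the highest DIEC_GFP array. The calls were lost in 14 and 11 of the 23 alternatives, with adjusted p up to 0.224 for B9d2 without SEZ_CD24 replicate 2 and 0.193 for Nphp4 with the 3' to 5' ratio as a covariate. Nphp4 has a second, dimmer probe set, which read 4.52 to 4.91 over all arrays. With the probe sets averaged the Nphp4 difference was 0.62 and its call was lost (adjusted p = 0.0585).

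The remaining transition zone genes passed in no pair. Tmem216 and Tmem231, membrane proteins of the MKS module, and Ahi1, a scaffold mutated in Joubert syndrome, had spans of 0.61, 0.97 and 0.78 log2 units between their lowest and highest group means. Ahi1 was the transition zone gene with its highest mean in DIEC_GFP by the widest margin over SEZ_GFPprom, 9.24 ± 0.33 (SD, n = 4) against 8.46 ± 0.35 (n = 4), a difference of -0.78 that missed the threshold (adjusted p = 0.0620). Tmem67, the membrane receptor-like member of the module, read between intensities of 7 and 12 on every array. Since 25.4% to 25.7% of all probe sets on each array stood at 10 or less, no level of Tmem67 could be told from background.

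**Figure D3:**
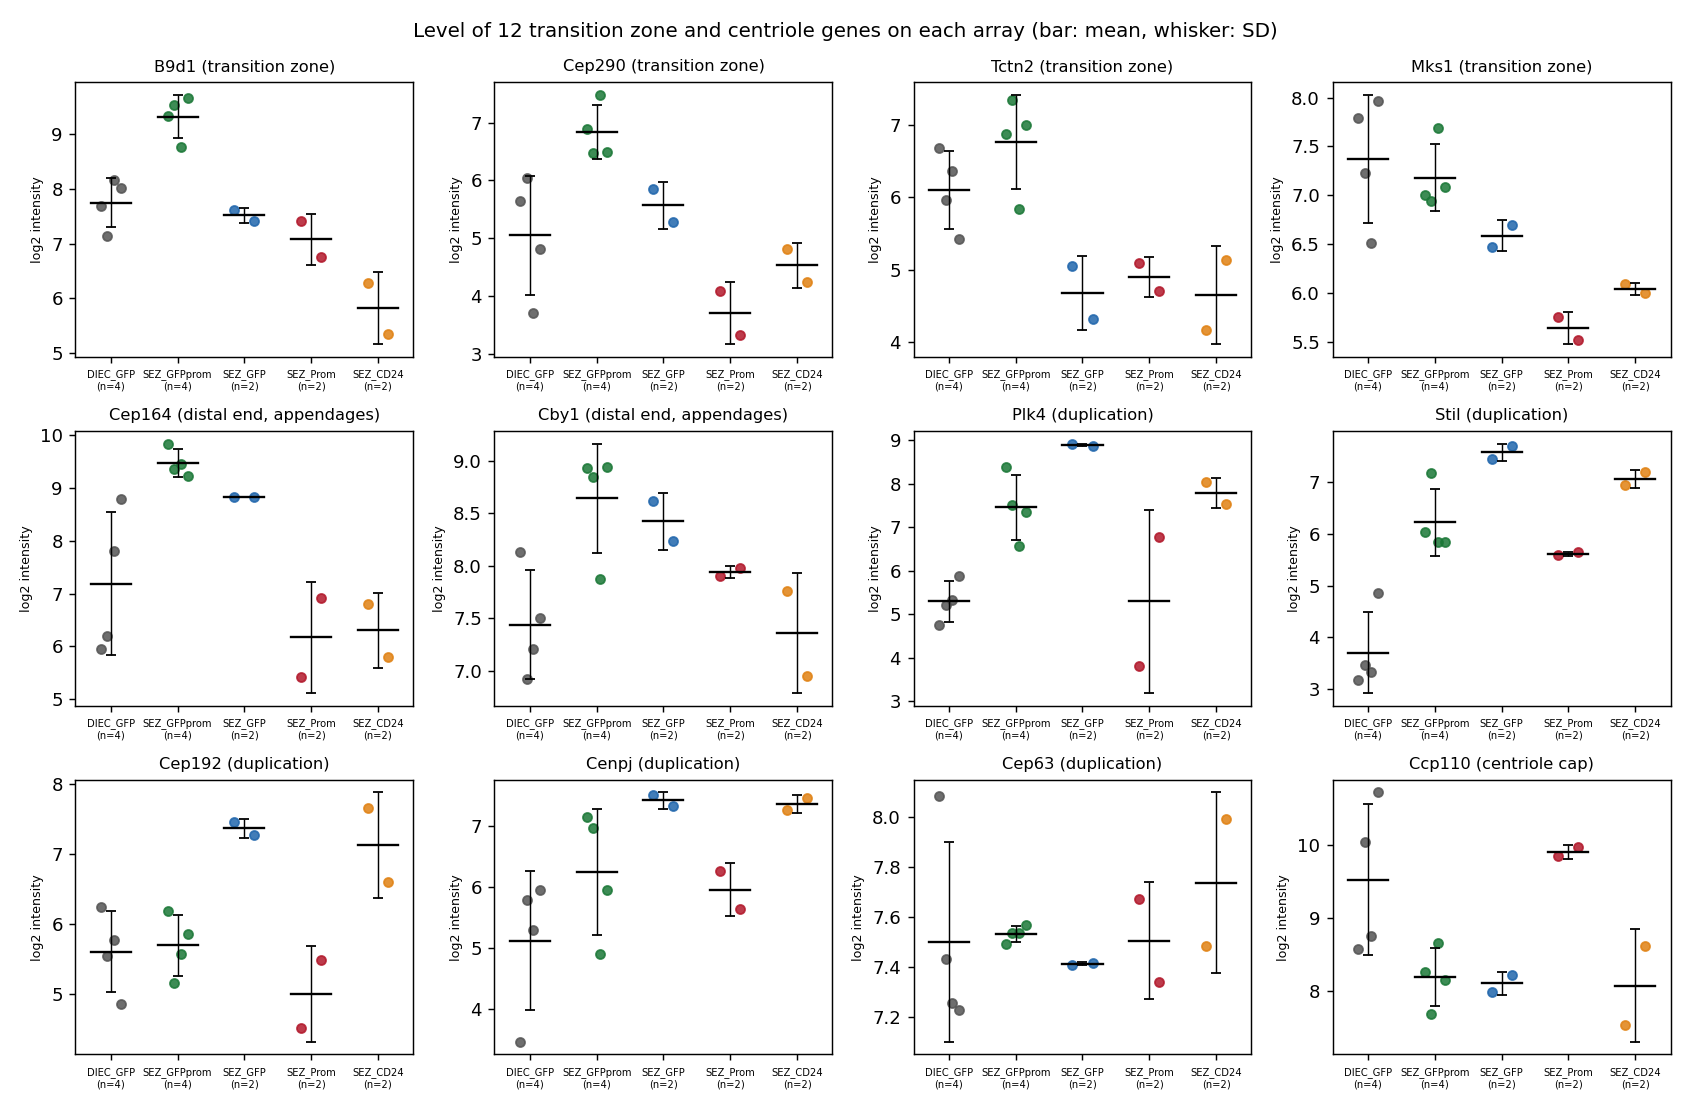
Log2 intensity of 12 of the genes on each array (points), with the mean (bar) and SD (whisker) of each sort. B9d1 and Cep290 are highest on all 4 SEZ_GFPprom arrays, Stil and Plk4 are highest on both SEZ_GFP arrays, and Cep63 lies within 7.23 to 8.09 throughout.

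At the distal end of the mother centriole, Cep164 is a distal appendage protein that recruits the kinase starting cilium assembly. By its brightest probe set it was high in both GFP-positive sorts of the subependymal zone. It read 9.84, 9.36, 9.45 and 9.23 (log2) in SEZ_GFPprom, 8.83 and 8.84 in SEZ_GFP, 5.95, 6.19, 7.81 and 8.79 in DIEC_GFP, 5.43 and 6.92 in SEZ_Prom, and 6.81 and 5.81 in SEZ_CD24. The 4 SEZ_GFPprom arrays lay above all others, and the DIEC_GFP arrays were widely spread. SEZ_GFPprom was 9.84-fold above SEZ_Prom (3.30 ± 0.70, adjusted p = 0.0159), 8.96-fold above SEZ_CD24 (3.16 ± 0.70, adjusted p = 0.0121) and 4.87-fold above DIEC_GFP (2.28 ± 0.57, adjusted p = 0.0181). These calls were lost without SEZ_Prom replicate 1 (adjusted p = 0.192), SEZ_CD24 replicate 2 (0.132) and DIEC_GFP replicate 2 (0.0557), and the last also with the 3' to 5' ratio as a covariate (0.393). Over the alternatives their adjusted p ranged from 0.00153 to 0.192, from 0.00375 to 0.132 and from 0.00299 to 0.393. Cep164 has 2 dimmer probe sets, and neither passed in any pair. The brighter of these read 7.72, 7.24, 7.60 and 6.43 in SEZ_GFPprom and 5.73 to 7.26 elsewhere. There SEZ_GFP read 6.30 and 6.29, within the DIEC_GFP arrays at 6.15 to 6.63. The Cep164 differences, and its high level in SEZ_GFP, thus depend on the probe set.

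Cby1, which acts at the distal end in ciliary vesicle formation and basal body docking, was 2.31-fold higher in SEZ_GFPprom than in DIEC_GFP (1.21 ± 0.31, adjusted p = 0.0213) and 2.44-fold higher than in SEZ_CD24 (1.29 ± 0.38, adjusted p = 0.0446). It read 8.93, 8.85, 7.87 and 8.94 (log2) in SEZ_GFPprom, 8.13, 6.92, 7.21 and 7.50 in DIEC_GFP, 7.76 and 6.95 in SEZ_CD24, 8.62 and 8.23 in SEZ_GFP, and 7.90 and 7.98 in SEZ_Prom. SEZ_GFPprom replicate 3 lay below the highest DIEC_GFP array. The calls were lost in 5 and 13 of the 23 alternatives, with adjusted p up to 0.241 with the 3' to 5' ratio as a covariate and 0.354 without SEZ_CD24 replicate 2.

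Cep89, another distal appendage protein, was 2.48-fold higher in SEZ_GFPprom than in SEZ_Prom (1.31 ± 0.33, adjusted p = 0.0363), from 8.17, 7.54, 7.53 and 7.79 (log2) against 5.86 and 7.04, and lost this call in 9 of the 23 alternatives (adjusted p up to 0.369, without SEZ_Prom replicate 1). Cep89 has 3 probe sets, and with these averaged the difference from SEZ_Prom was 0.69 and did not pass (adjusted p = 0.308). Its difference from DIEC_GFP, 0.84, narrowly missed the threshold (adjusted p = 0.0523) although these sorts did not overlap. Ofd1, which restrains centriole length, and Odf2, a subdistal appendage protein, passed in no pair. Ofd1 averaged 6.05 ± 0.34 (SD, n = 2) in SEZ_GFP, 5.93 ± 0.54 (n = 4) in SEZ_GFPprom and 5.19 ± 0.29 (n = 4) in DIEC_GFP, and Odf2 9.12 ± 0.72 (n = 2), 8.40 ± 0.62 (n = 4) and 8.31 ± 0.29 (n = 4) in these sorts.

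Of the cap proteins, Ccp110 passed the F test over the 5 sorts (adjusted p = 0.0481) but no single pair. It read 9.84 and 9.98 (log2) in SEZ_Prom, 8.58, 10.05, 8.76 and 10.72 in DIEC_GFP, 8.25, 7.69, 8.65 and 8.15 in SEZ_GFPprom, 7.99 and 8.21 in SEZ_GFP, and 7.52 and 8.62 in SEZ_CD24. Both SEZ_Prom arrays lay above every SEZ_GFPprom, SEZ_GFP and SEZ_CD24 array. SEZ_GFPprom minus SEZ_Prom was -1.72 (95% interval -2.91 to -0.54, adjusted p = 0.0823), and SEZ_GFPprom minus DIEC_GFP -1.34 (-2.31 to -0.37, adjusted p = 0.0570). Its partner Cep97 averaged between 6.39 ± 0.78 (SD, n = 2) in SEZ_CD24 and 7.01 ± 0.29 (n = 2) in SEZ_GFP and passed in no pair.

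Stil, the scaffold that Plk4 phosphorylates to start a new centriole, was higher in all 4 subependymal sorts than in the diencephalic astrocytes. Its log2 intensity was 3.17, 3.46, 3.32 and 4.86 in DIEC_GFP, 7.45 and 7.69 in SEZ_GFP, 6.94 and 7.19 in SEZ_CD24, 6.04, 7.17, 5.83 and 5.83 in SEZ_GFPprom, and 5.58 and 5.64 in SEZ_Prom. All 10 subependymal arrays lay above all 4 diencephalic ones, 3 of which were at intensities of 9 to 11, about background, so the folds below are set against a group near background and are not exact. Relative to DIEC_GFP the level was 14.6-fold higher in SEZ_GFP (3.87 ± 0.47, adjusted p = 0.000363), 10.3-fold in SEZ_CD24 (3.36 ± 0.47, adjusted p = 0.000586), 5.73-fold in SEZ_GFPprom (2.52 ± 0.38, adjusted p = 0.00141) and 3.76-fold in SEZ_Prom (1.91 ± 0.47, adjusted p = 0.0315). The first 3 of these passed under all 23 alternatives, with adjusted p up to 0.0187, 0.0148 and 0.0335. The call in SEZ_Prom was lost in 9, with adjusted p up to 0.539 with the 3' to 5' ratio as a covariate and 0.181 without SEZ_Prom replicate 1. Among the subependymal sorts no difference in Stil passed, the nearest being SEZ_GFP minus SEZ_Prom at 1.96 ± 0.54 (adjusted p = 0.0508).

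Plk4, the kinase that licenses centriole duplication, followed the same order except in SEZ_Prom, whose 2 arrays disagreed. It read 8.91 and 8.87 (log2) in SEZ_GFP, 8.03 and 7.53 in SEZ_CD24, 8.38, 7.52, 6.55 and 7.36 in SEZ_GFPprom, 4.75, 5.21, 5.32 and 5.88 in DIEC_GFP, and 3.81 and 6.78 in SEZ_Prom. SEZ_GFP lay above and DIEC_GFP below all arrays of the other sorts, apart from the SEZ_Prom pair. SEZ_GFP was 12.1-fold above DIEC_GFP (3.59 ± 0.68, adjusted p = 0.00484) and 12.1-fold above SEZ_Prom (3.59 ± 0.78, adjusted p = 0.0206). SEZ_CD24 was 5.62-fold (2.49 ± 0.68, adjusted p = 0.0258) and SEZ_GFPprom 4.47-fold (2.16 ± 0.55, adjusted p = 0.0205) above DIEC_GFP.

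These 4 calls of Plk4 were lost in 2, 4, 6 and 4 of the 23 alternatives. The first was lost without SEZ_GFP replicate 2 (adjusted p = 0.0573) and with the 3' to 5' ratio as a covariate (0.221), and the second without SEZ_GFP replicate 1 (0.10) or 2 (0.130) or SEZ_Prom replicate 1 (0.114). Over the alternatives the 4 adjusted p-values ranged from 0.000177 to 0.221, from 0.00424 to 0.192, from 0.000657 to 0.157 and from 0.000138 to 0.355. Plk4 has 3 probe sets, the brightest of a type whose sequence is shared between transcripts. With p adjusted over all probe sets that carry a single symbol, all 3 were higher in SEZ_GFP and SEZ_CD24 than in DIEC_GFP and in SEZ_GFP than in SEZ_Prom. The second put SEZ_GFPprom 3.00 above DIEC_GFP (adjusted p = 0.000186) and 2.11 above SEZ_Prom (adjusted p = 0.00911), whereas the dimmest passed in neither.

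Cep192, which gathers Plk4 and pericentriolar material on the centriole, was high in SEZ_GFP and SEZ_CD24. It read 7.47 and 7.28 (log2) in SEZ_GFP, 7.67 and 6.60 in SEZ_CD24, 6.25, 5.55, 5.78 and 4.86 in DIEC_GFP, 6.19, 5.17, 5.58 and 5.86 in SEZ_GFPprom, and 4.52 and 5.49 in SEZ_Prom. These first 4 arrays lay above the other 10. SEZ_GFP was 5.15-fold above SEZ_Prom (2.36 ± 0.50, adjusted p = 0.0176) and 3.39-fold above DIEC_GFP (1.76 ± 0.43, adjusted p = 0.0193). SEZ_CD24 was 4.36-fold above SEZ_Prom (SEZ_Prom minus SEZ_CD24 -2.12 ± 0.50, adjusted p = 0.0321), 2.87-fold above DIEC_GFP (1.52 ± 0.43, adjusted p = 0.0307) and 2.70-fold above SEZ_GFPprom (SEZ_GFPprom minus SEZ_CD24 -1.43 ± 0.43, adjusted p = 0.0470). SEZ_GFPprom minus SEZ_GFP, -1.67, was of like size and did not pass (adjusted p = 0.0626).

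The 5 calls of Cep192 were lost in 4, 4, 8, 7 and 14 of the 23 alternatives. Those of SEZ_GFP were lost without SEZ_GFP replicate 1 (adjusted p = 0.0988 against SEZ_Prom and 0.137 against DIEC_GFP) or 2 (0.110 and 0.114), and the former also without SEZ_Prom replicate 1 (0.132). Without SEZ_CD24 replicate 1 those of SEZ_CD24 reached 0.140 against SEZ_Prom, 0.290 against DIEC_GFP and 0.320 against SEZ_GFPprom. The call against SEZ_Prom was also lost without SEZ_Prom replicate 1 (0.193) or 2 (0.0686) and reached 0.209 with only the groups compared. Cenpj, which sets centriole length, was called in 1 pair, 4.72-fold higher in SEZ_CD24 than in DIEC_GFP (2.24 ± 0.70, adjusted p = 0.0482). It read 7.26 and 7.46 (log2) in SEZ_CD24 and 3.46, 5.78, 5.29 and 5.95 in DIEC_GFP, and was as high in SEZ_GFP, at 7.51 and 7.32. The SEZ_GFP difference of 2.29 missed the threshold (adjusted p = 0.0532), and the SEZ_CD24 call was lost in 16 of the 23 alternatives (adjusted p up to 0.208, without SEZ_CD24 replicate 2).

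The other 5 duplication genes passed in no pair and in no F test. Sass6, the cartwheel protein, varied within sorts by as much as between them, with means from 5.34 ± 1.89 (SD, n = 2) in SEZ_CD24 to 6.29 ± 0.38 (n = 2) in SEZ_GFP. Cep152, which recruits Plk4, averaged 5.96 ± 0.66 (n = 2) in SEZ_GFP and 4.68 ± 0.51 (n = 2) in SEZ_Prom. Its partner Cep63 was the steadiest measured duplication gene, with group means from 7.41 ± 0.01 (n = 2) to 7.74 ± 0.36 (n = 2), and Cep135 and the elongation factor Cep120 had group means from 3.96 to 4.85 and from 6.58 to 7.74.

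**Figure D4:**
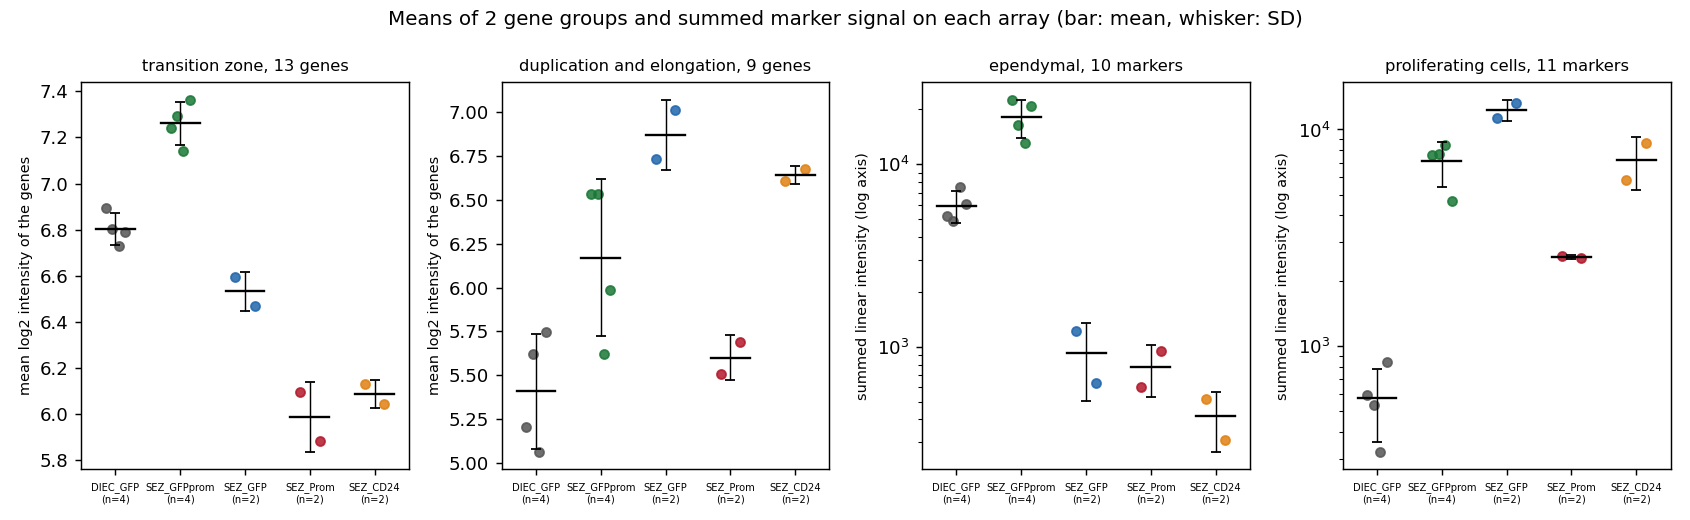
For each array (points, with the mean as a bar and the SD as a whisker per sort), the mean log2 intensity of the 13 transition zone genes and of the 9 duplication genes, and the summed linear intensity of 10 ependymal and 11 proliferation markers on log axes. The transition zone mean and the ependymal sum are both highest in SEZ_GFPprom (7.14 to 7.36, and 13024 to 22478), and the duplication mean and the proliferation sum are both highest in SEZ_GFP (6.73 and 7.01, and 11352 to 13294). Among marker lists not plotted, the mural sum was also highest in SEZ_GFPprom (1127 to 2405). The neuroblast sum was also high in SEZ_GFP (16494 to 17372) and SEZ_CD24 (16637 to 28823). The part of any of these cell types in the gene means was not tested.

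Cep41, which promotes glutamylation of ciliary tubulin, was highest in SEZ_GFPprom. It read 7.44, 7.62, 7.27 and 8.06 (log2) in SEZ_GFPprom, 7.30 and 7.06 in SEZ_GFP, 6.69, 6.89, 5.21 and 7.07 in DIEC_GFP, 6.58 and 6.46 in SEZ_CD24, and 5.49 and 5.61 in SEZ_Prom. SEZ_GFPprom did not overlap with DIEC_GFP, SEZ_CD24 or SEZ_Prom. It was 4.13-fold above SEZ_Prom (2.04 ± 0.43, adjusted p = 0.0149) and 2.20-fold above DIEC_GFP (1.13 ± 0.35, adjusted p = 0.0433). The first call was lost without SEZ_Prom replicate 1 (adjusted p = 0.122) or 2 (0.0916), and the second in 15 of the 23 alternatives (0.0127 to 0.353, the highest with the 3' to 5' ratio as a covariate). The first ranged from 0.000439 to 0.122. The second brightest probe set of Cep41 read 6.07 and 6.41 in SEZ_Prom, which overlapped with SEZ_GFPprom at 6.98, 5.86, 7.44 and 7.03. The low level in SEZ_Prom thus depends on the probe set.

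Pcm1, the scaffold of the centriolar satellites, gave different pictures by probe set, of which it has 5. By its brightest probe set it passed in no pair, with means from 7.53 ± 1.78 (SD, n = 2) in SEZ_CD24 to 8.92 ± 0.43 (n = 4) in DIEC_GFP, the highest sort. Its second brightest probe set read 6.21, 6.17, 6.27 and 6.82 in DIEC_GFP, 8.08, 7.67, 7.58 and 7.48 in SEZ_GFPprom, 7.77 and 7.48 in SEZ_GFP, 7.30 and 7.21 in SEZ_CD24, and 6.48 and 6.67 in SEZ_Prom. There DIEC_GFP and SEZ_Prom were low and the other 3 sorts high, with no overlap. It passed in SEZ_GFPprom against DIEC_GFP (1.33, adjusted p = 0.00110) and SEZ_Prom (1.13, 0.0175), in SEZ_GFP against DIEC_GFP (1.26, 0.00495) and SEZ_Prom (1.06, 0.0425), and in SEZ_CD24 against DIEC_GFP (0.89, 0.0241). Another, dimmer probe set passed in 3 of these 5 pairs, and the remaining 2 in none. Of the 31 genes, 14 have several probe sets, and apart from those of Pcm1, Plk4 and Cep41 (a dim probe set, 1.53 higher in SEZ_GFPprom than in SEZ_CD24, adjusted p = 0.0352) no probe set other than the brightest was called.

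**Figure D5:**
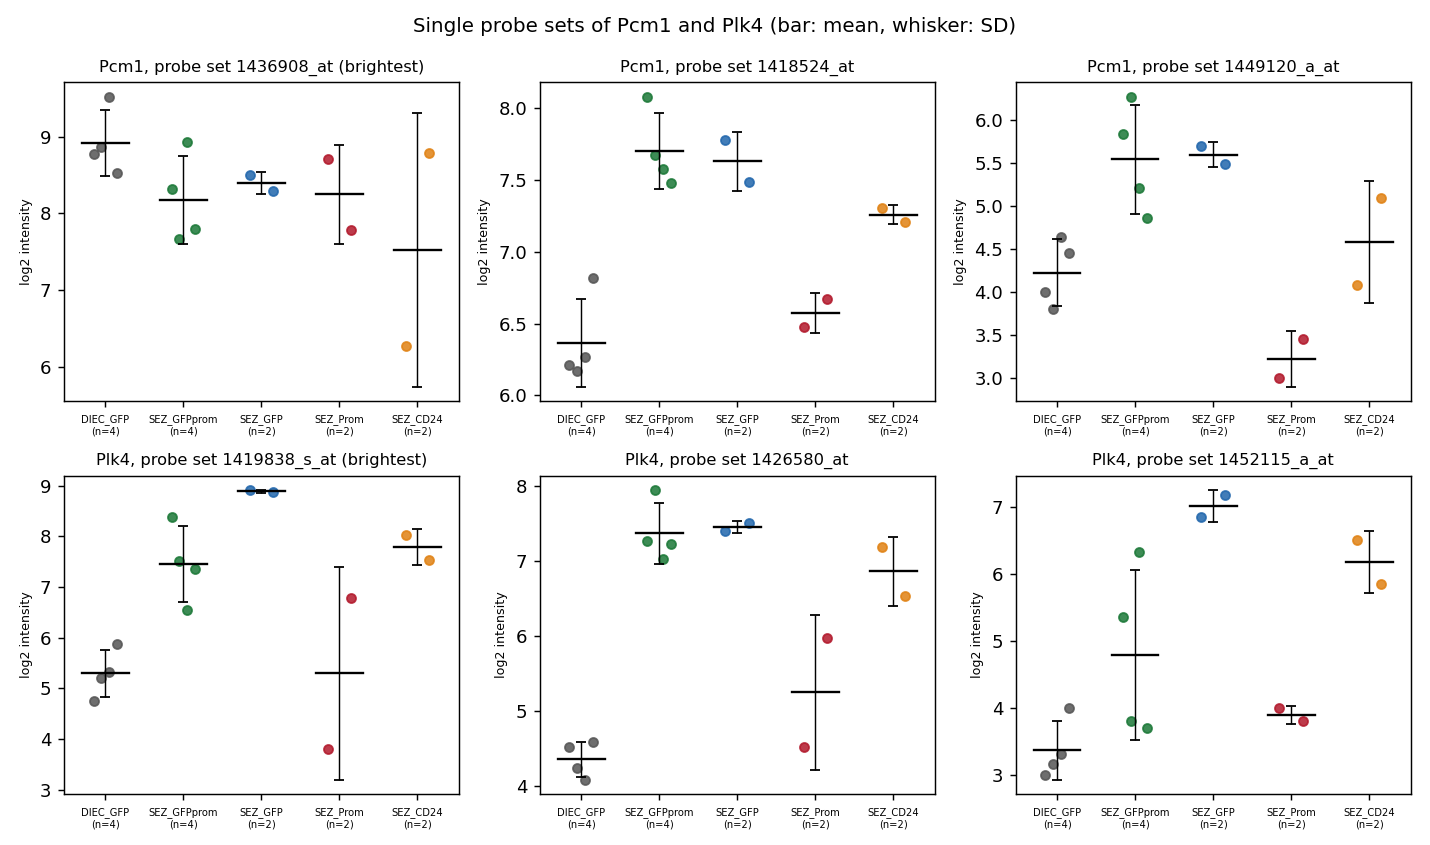
Log2 intensity of 3 of the 5 probe sets of Pcm1 (top) and all 3 of Plk4 (bottom) on each array (points), with the mean (bar) and SD (whisker) of each sort. For Pcm1 the brightest probe set has its highest mean in DIEC_GFP (8.92), where the second is low (6.17 to 6.82), while for Plk4 the means of all 3 are lowest in DIEC_GFP and SEZ_Prom.

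Other genes of the same structures, from lists of known components, were read in the same fit. Of 17 further transition zone and distal appendage genes, 3 were higher in SEZ_GFPprom than in DIEC_GFP, 1 than in SEZ_GFP, 5 than in SEZ_Prom and 4 than in SEZ_CD24, against 10.1%, 2.63%, 4.40% and 8.98% of all genes, and none was lower. Tmem107, an MKS-module membrane protein, was in all 4 of these counts, 8.68-fold above SEZ_CD24 (adjusted p = 0.000146), 6.11-fold above SEZ_Prom, 3.84-fold above SEZ_GFP and 2.00-fold above DIEC_GFP. Cep83, the distal appendage protein at the root of the appendage, was 3.22-fold above DIEC_GFP (adjusted p = 0.000102), 3.14-fold above SEZ_CD24 and 2.64-fold above SEZ_Prom. Tmem17, near background in SEZ_CD24 at log2 2.81 and 4.0, was higher in SEZ_GFPprom than there (adjusted p = 0.00138), and Fbf1 was 1.92-fold above DIEC_GFP (adjusted p = 0.0119). In SEZ_CD24 3 of the 17 were lower than in DIEC_GFP, against 9.74% of all genes, and in SEZ_Prom 3, against 2.98%.

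Of 27 further centriole and satellite genes, 6, 1, 4 and 5 were higher in SEZ_GFPprom than in DIEC_GFP, SEZ_GFP, SEZ_Prom and SEZ_CD24, against the same shares of all genes, and none was lower. The single call against SEZ_GFP is near that background. Cetn2, a centrin of the distal centriole lumen, was 5.89-fold above SEZ_CD24 (adjusted p = 4.88e-05), 4.50-fold above SEZ_Prom, 2.59-fold above SEZ_GFP and 1.71-fold above DIEC_GFP. Cep128, a subdistal appendage protein, was 3.33-fold above SEZ_CD24 and 3.09-fold above DIEC_GFP, and Nin, a subdistal protein that anchors microtubules, 4.65-fold above SEZ_Prom. In SEZ_GFP against DIEC_GFP 3 were higher, against 5.61% of all genes, namely Cep57, Cep295 and Ninl. Of 9 genes of massive centriole amplification in multiciliated cells, 4, 4, 5 and 5 were higher in SEZ_GFPprom in the 4 comparisons, against the shares of all genes given above. Deup1 was near background in SEZ_GFP and SEZ_CD24, at log2 3.32 to 3.81, so its folds there are not exact. Deup1, the scaffold of the deuterosome on which multiciliated cells build centrioles, was 9.14-fold above SEZ_GFP (adjusted p = 0.000609), 8.88-fold above SEZ_CD24 and 4.26-fold above DIEC_GFP, and Cetn4 9.62-fold above SEZ_CD24 (adjusted p = 0.000204). Foxj1, which also stands in the ependymal list, was 14.8-fold above SEZ_CD24 (adjusted p = 2.31e-05).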

How the data were processed

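RNA from the sorted cells was amplified in 2 rounds and hybridised to 14 one-colour Affymetrix mouse arrays, per the labels' protocols. The deposited intensities are linear values of RMA, which corrects background, normalises between arrays and summarises probes, per the submitters' processing notes. The version is not given in the sources used here. The values are whole numbers, so dim probe sets have coarse steps. The analysis had been planned for log2 intensities, and log2 was therefore taken, with no pseudocount.

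Of 45101 probe sets, 34945 paired with 1 gene symbol in the platform annotation, 932 with several and 9160 with none, and 64 controls were left out. The brightest probe set by mean stood for each of 18193 genes. Groups were compared with limma 3.58.1 in R 4.3.3 (lmFit and eBayes, 5 group means over 14 arrays, 9 residual degrees of freedom), with Benjamini-Hochberg adjustment over all genes and a threshold of 0.05. The script was tested on simulated data.

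The genes and lists were chosen with earlier results of these data known. All 31 measured genes are described. From other lists, at most 4 called genes per list and comparison, by smallest adjusted p, could be named. Alternatives were another normalization, a filter or floor on dim values, other probe set rules, other samples or covariates in the fit, and leaving out each array. The number of arrays limits the precision. RefSeq promoters are of GRCm38.p6.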

Additional observations from a re-analysis of the deposited data

Results flagged for a closer look

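In 62 groups of 4 arrays, Dixon's gap ratio for the highest or lowest array was above its 95% critical value in 4, and chance alone gives about 1 in 20 groups. Cby1 in SEZ_GFPprom replicate 3 stood at log2 7.87, below the other 3 arrays at 8.85 to 8.94. Sass6 in the same array stood at 4.52, below 6.34 to 6.64. Stil in SEZ_GFPprom replicate 2 stood at 7.17, above 5.83 to 6.04. Cep152 in DIEC_GFP replicate 2 stood at 4.32, below 4.95 to 5.04.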

How the results depend on the processing

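No called difference of a gene reversed its sign under any of the 23 alternatives tried, and quantile normalization, cyclic loess and leaving out probe sets of shared sequence kept each count of called genes within 1.5 times. For SEZ_GFPprom against DIEC_GFP the count of 8 was 1 with the 3' to 5' ratio as a covariate, and 3 to 10 when single arrays were left out. For SEZ_GFPprom against SEZ_GFP the count of 2 was 1 with intensities under 10 set to 10, 0 with the replicate block, 1 with the 3' to 5' covariate, 1 with only the groups compared, and 0 to 3 without single arrays. Against SEZ_Prom the count of 9 was 5 with the floor of 10, 3 with the replicate block, and 2 to 11 without single arrays. Against SEZ_CD24 the count of 7 was 4 with the floor, 4 with the covariate, 3 with only the groups compared, and 2 to 7 without single arrays. For SEZ_GFP against DIEC_GFP the count of 3 was 5 without the dimmest 25% of genes, 1 with the covariate, and 1 to 6 without single arrays. For SEZ_Prom against SEZ_CD24 the count of 1 was 2 with probe sets of a gene averaged, 0 with the floor, 0 with the replicate block, 0 with the covariate, 0 with only the groups compared, and 0 to 1 without single arrays. For SEZ_CD24 against DIEC_GFP the count of 7 was 4 with the floor, 2 with the replicate block, 2 with the covariate, 3 with only the groups compared, and 2 to 7 without single arrays. For SEZ_GFP against SEZ_Prom the count of 2 was 4 without the dimmest genes, 4 with the covariate, and 0 to 5 without single arrays. For SEZ_Prom against DIEC_GFP the count of 4 was 1 with the replicate block, 0 with the covariate, 2 with only the groups compared, and 0 to 5 without single arrays. The F test's count of 14 was 9 with the floor, 9 with the replicate block, 9 with the covariate, and 8 to 14 without single arrays. The cause of these shifts was not tested.

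Replicate numbers here are those of the sample titles, and the descriptions number some arrays differently. The groups share title numbers. In sorts of 2 arrays the deviations from the group mean mirror each other, so pairs among SEZ_CD24, SEZ_GFP and SEZ_Prom repeat each value under both numbers. The 22 pairs of same-numbered arrays, these repeats included, correlated in their deviations from the group means at only -0.188 to 0.129. Of these 3 were over 0.1, the repeated 0.129 among them. Counts under the replicate block are therefore given in this section alone. The block is still 1 of the 23 alternatives behind the numbers of lost calls and ranges of adjusted p in the Results, and 21 calls were lost under it. Over all genes the count of calls moved by more than 1.5 times in these cases: with the covariate, from 3247 to 1486 (SEZ_GFPprom against DIEC_GFP), 2302 to 1296 (SEZ_GFP against DIEC_GFP), 1151 to 579 (SEZ_Prom against DIEC_GFP), 1006 to 136 (SEZ_Prom against SEZ_CD24) and 149 to 35 (SEZ_GFP against SEZ_CD24); with the replicate block, from 1302 to 811 (SEZ_GFPprom against SEZ_Prom); and with the floor, from 149 to 80 (SEZ_GFP against SEZ_CD24). With only the groups compared they fell from 2496 to 1580 (SEZ_GFPprom against SEZ_CD24), 3028 to 1808 (SEZ_CD24 against DIEC_GFP), 1267 to 580 (SEZ_GFP against SEZ_Prom), 1151 to 538 (SEZ_Prom against DIEC_GFP), and to 0 for SEZ_Prom and for SEZ_GFP against SEZ_CD24, where 4 arrays remained in the limma fit.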
